A study of Homo sapiens with 4 samples.

Results

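The keratin and keratin-associated protein genes of the human genome lie mostly in a few dense clusters. Their lamin B1 occupancy was read in 67 bins, out of 71569 bins with a value in both of 2 prostate cancer cell lines. The bins were taken by position, as those overlapping 6 loci in hg19 (GRCh37). The loci were chosen with earlier results of these data known. The type II keratin locus is chr12:52560000-53350000 and held 20 bins. On chromosome 17 the first type I keratin locus is chr17:38800000-39150000 with 9 bins, the KRTAP locus chr17:39150000-39500000 with 10, and the second type I keratin locus chr17:39500000-39790000 with 8. The first KRTAP locus of chromosome 21 is chr21:31650000-32270000 with 16 bins, and the second is chr21:45950000-46140000 with 6. The loci of chromosome 17 adjoin each other and share 2 border bins, which are counted in both neighbours and once in the total.

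Keratins are the intermediate filament proteins of epithelial cells, and each filament pairs a type I with a type II chain. Simple epithelia, the luminal cells of the prostate among them, use KRT8 and KRT18, whereas basal cells use KRT5 and KRT14, and other pairs mark the layers of the epidermis and the hair follicle. Keratin-associated proteins (KRTAPs) are small proteins rich in cysteine, or in glycine and tyrosine, that embed the keratin filaments of the hair shaft. Lamin B1 helps to build the lamina that lines the inside of the nuclear envelope, and tissue-specific gene clusters that a cell does not use are often found in chromatin bound to that lining.

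Both are established cell lines: LNCaP comes from a prostate adenocarcinoma, and VCaP comes from prostate cancer that had spread to bone. Both were grown in serum-containing medium without any stated drug or hormone, fixed with formaldehyde and immunoprecipitated with a lamin B1 antibody (chromatin immunoprecipitation and sequencing, ChIP-seq). Each line has 1 lamin B1 library and 1 input library made without antibody, 4 libraries in all. The value of a bin is the log2 of ChIP enrichment relative to input over 40 kb, and the deposited state calls each bin associated or not associated. With 1 library pair per line no difference has a replicate check, and no test between the lines could be made. Errors therefore describe how much nearby bins scatter within a library, called noise here. The SD of a single bin was 0.15 in LNCaP and 0.23 in VCaP, and 0.27 for the difference between the lines. The number of reads behind each bin is unknown. Each deposited value also averages its own bin and the 2 before it, so the signal sits about 40 kb downstream of its source and neighbouring bins are not independent. Expression was not analysed here, so the values say nothing of which keratins these cells make.

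The genes of the loci were taken by their order in the RefSeq table, which is of GRCh38.p14, so that apart from KRT8 and KRT18 each gene is tied to a locus and not to a bin. The table listed 137 protein-coding keratin and KRTAP genes in this order: 27 in the type II locus, 12 in the first and 16 in the second type I locus, 34 in the KRTAP locus of chromosome 17, and 32 and 16 in the KRTAP loci of chromosome 21. A start with its promoter sequence was matched for 111 of them (81.0%). The 250 bases before the start are printed below for KRT8, whose place in the type II locus is known, and for the gene nearest the median GC content in each of the 4 loci with a promoter for at least 80% of their genes. They show the base composition of single promoters and not that of the loci. Each window precedes the RefSeq start taken for its gene. Which start these cells use, for KRT8 or any other gene, was not tested. The strand is that of the gene and the letters run 5′ to 3′. Capitals mark the letters TATAAA, the core of the TATA box, which was searched on both strands. In GRCh38.p14, whose positions are not to be compared with the hg19 positions of the bins, they are chr12:52926470-52926719 (minus strand) for KRT8, chr17:40782551-40782800 (minus strand) for KRT27 of the first type I locus, chr17:41098143-41098392 (minus strand) for KRTAP4-8 of the chromosome 17 KRTAP locus, chr21:30429970-30430219 (plus strand) for KRTAP13-4 of the first chromosome 21 locus and chr21:44611829-44612078 (plus strand) for KRTAP10-8 of the second.
KRT8: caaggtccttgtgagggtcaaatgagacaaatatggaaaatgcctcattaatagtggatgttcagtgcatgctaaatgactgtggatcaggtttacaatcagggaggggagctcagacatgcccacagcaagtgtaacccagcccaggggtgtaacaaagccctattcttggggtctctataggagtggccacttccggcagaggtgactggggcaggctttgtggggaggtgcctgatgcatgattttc
KRT27: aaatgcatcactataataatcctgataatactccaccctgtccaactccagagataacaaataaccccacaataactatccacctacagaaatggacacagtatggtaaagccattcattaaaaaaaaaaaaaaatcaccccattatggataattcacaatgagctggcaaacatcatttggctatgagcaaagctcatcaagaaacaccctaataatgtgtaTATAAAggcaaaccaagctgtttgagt
KRTAP4-8: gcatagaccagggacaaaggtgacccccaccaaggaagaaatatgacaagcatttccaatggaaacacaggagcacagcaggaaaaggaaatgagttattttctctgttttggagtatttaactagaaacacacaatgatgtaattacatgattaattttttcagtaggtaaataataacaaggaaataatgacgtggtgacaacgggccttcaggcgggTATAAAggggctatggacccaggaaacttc
KRTAP13-4: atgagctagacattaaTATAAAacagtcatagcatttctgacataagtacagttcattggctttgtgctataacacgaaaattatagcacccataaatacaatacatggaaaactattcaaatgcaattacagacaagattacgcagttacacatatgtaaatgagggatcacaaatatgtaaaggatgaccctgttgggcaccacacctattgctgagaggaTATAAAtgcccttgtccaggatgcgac
KRTAP10-8: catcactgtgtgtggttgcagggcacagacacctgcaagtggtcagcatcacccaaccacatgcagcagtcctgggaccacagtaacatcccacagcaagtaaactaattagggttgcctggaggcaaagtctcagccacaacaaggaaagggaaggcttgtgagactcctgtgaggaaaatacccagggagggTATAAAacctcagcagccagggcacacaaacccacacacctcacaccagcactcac

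TATAAA was present in 81 of the 111 matched promoters (73.0%), against 11.1% of the promoters of all 27303 genes with a sequence. It was found in 29 of 33 promoters of the chromosome 17 KRTAP locus, 21 of 29 of the first and 11 of 15 of the second chromosome 21 locus, and 7 of 10 of the first type I locus. In the loci with promoters for fewer of their genes, it was found in 7 of 10 of the second type I locus and in 6 of 14 of the type II locus. The printed KRT8 window does not hold these letters, and any other start of KRT8 was not searched. Many KRTAP genes are close copies of each other, so their promoters are not independent of one another. Median GC content was 36.0% in the first type I locus, 40.4% in the KRTAP locus of chromosome 17, 36.8% in the first KRTAP locus of chromosome 21 and 53.2% in the second, against 58.0% over all genes. In the type II locus 14 of 27 genes and in the second type I locus 10 of 16 had a promoter in the table, too few for a value of the locus, so the comparison of GC content is void there.

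**Figure D1:**
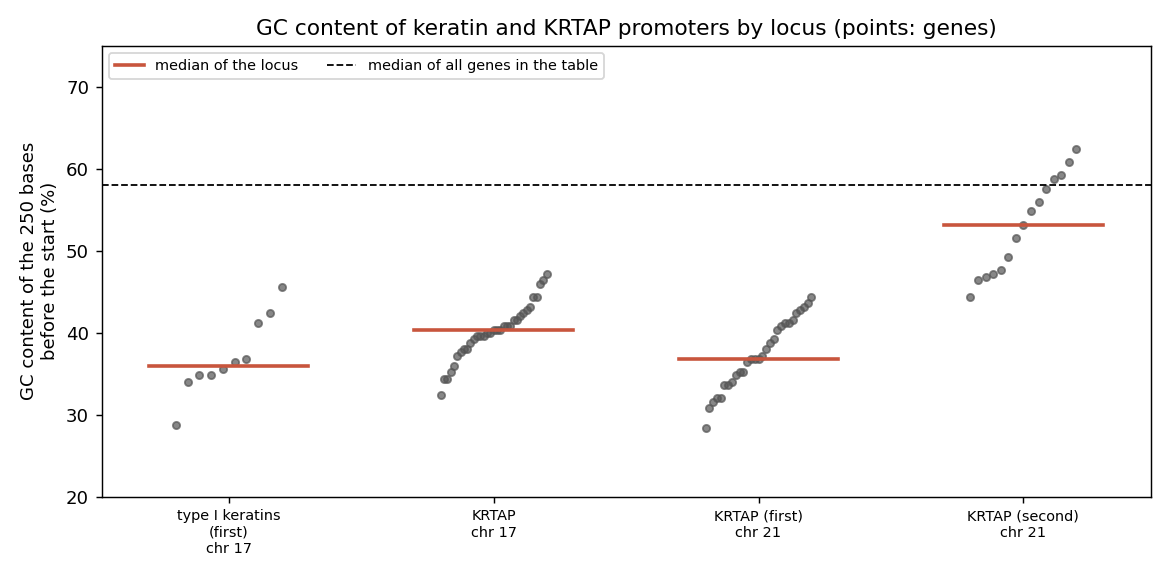
GC content (%) of the 250 bases before the start of each gene, by locus; points are genes in rising order, red lines the median of the locus and the dashed line the median of all genes in the table. Of the 4 loci shown, the second KRTAP locus of chromosome 21 has the highest median, 53.2%, with genes from 44.4% to 62.4%, and the genes of the first lie between 28.4% and 44.4%; single genes of the other loci shown overlap the lower part of its range.

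Over all loci, more of the keratin DNA was in the lamin-associated state in the VCaP libraries than in the LNCaP libraries. In LNCaP 0 of the 67 bins were in the associated state, where 37.9% of all bins were. In VCaP 39 of 67 bins (58.2%) were associated, where 44.4% of all bins were. All 39 were therefore associated in VCaP and not in LNCaP, a class that held 23.8% of all bins. On the chromosomes of the loci this class held 28.7% (chromosome 12), 56.8% (chromosome 17) and 41.1% (chromosome 21) of the bins. The median of the 67 bins was a log2 enrichment of -0.14 in LNCaP, with a range of -0.55 to 0.17, and 0.50 in VCaP, with a range of -0.66 to 1.14. The medians of all bins were 0.06 and 0.19, so the zero points of the lines lie 0.13 apart. Enrichment lay over 0 in 18 bins in LNCaP, where 56.9% of all bins did, and in 54 bins in VCaP, where 66.9% of all bins did. VCaP was higher in 64 of the 67 bins, but the share of all bins with VCaP higher was not computed. The median difference, VCaP minus LNCaP, was 0.61 in the members and 0.10 over all bins. It was 0.17 on chromosome 12, 0.51 on chromosome 17 and 0.56 on chromosome 21. A difference of more than 2 noise SDs, 0.54, was seen in 34 bins with VCaP higher (19% of all bins) and in 0 with LNCaP higher (7.81% of all bins). The 34 bins are 50.7% of the members, and on the chromosomes of the loci the share higher in VCaP was 24.3% (chromosome 12), 47.5% (chromosome 17) and 51.1% (chromosome 21). The pooled share does not hold for each locus. It joins 20 of 20 bins of the type II locus with 0 of 9, 0 of 10 and 7 of 8 along chromosome 17. On chromosome 21 the first KRTAP locus had 1 of 16 such bins and the second 6 of 6. With each line centred on the median of the chromosome, a choice made after seeing the data, the counts were 18 and 4. The shares of all bins called under this centring were not computed, so these 2 counts cannot be set beside the genome.

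The loci did not behave alike, and the 3 chromosomes differ as wholes. Of all bins of chromosome 12, 25.0% were associated in LNCaP and 40.9% in VCaP. On chromosome 17 the shares were 22.7% and 75.2%, and on chromosome 21 they were 4.85% and 43.3%. In VCaP the order of the locus means was the second KRTAP locus of chromosome 21 (0.86), the second type I locus (0.83), the type II locus (0.75), the KRTAP locus of chromosome 17 (0.21), the first type I locus (0.12) and the first KRTAP locus of chromosome 21 (-0.17). Of the 5 steps in this order only that between the third and the fourth locus, 0.54, exceeded 2 noise SDs (noise SD 0.15). In LNCaP the means ran from 0.06 in the second type I locus to -0.37 in the first KRTAP locus of chromosome 21, and no step between neighbours in the order exceeded 2 noise SDs.

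**Figure D2:**
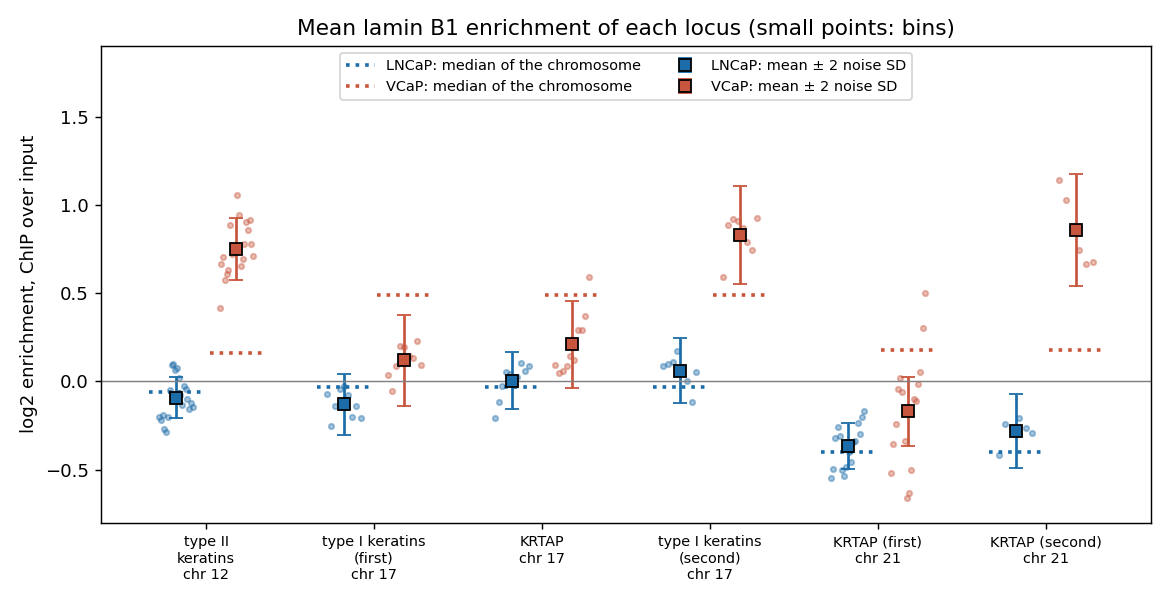
Log2 enrichment of ChIP over input for each locus in LNCaP (blue) and VCaP (red); squares are means of the bins with bars of 2 noise SDs either way, small points are bins and dotted lines the median of the chromosome in that line. In VCaP 3 loci have means between 0.75 and 0.86 and the other 3 between -0.17 and 0.21, whereas LNCaP means lie between -0.37 and 0.06.

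The type II locus holds keratins of many epithelia, from the simple keratins KRT7 and KRT8 through the basal KRT5 and the stress keratins KRT6A, KRT6B and KRT6C to the epidermal KRT1 and KRT2 and the hair keratins KRT81 to KRT86. It also holds KRT18, a type I gene that lies apart from its relatives, beside its partner KRT8. All 20 of its bins were associated in VCaP and 0 in LNCaP. The mean log2 enrichment was -0.09 in LNCaP (noise SD 0.06, bins from -0.29 to 0.10) and 0.75 in VCaP (noise SD 0.09, bins from 0.41 to 1.05). The ranges of the lines did not overlap. The difference of the means, 0.84, was 8.04 times its noise SD of 0.10, and VCaP was higher beyond noise in 20 of 20 bins. With each line centred on the median of chromosome 12 it was 0.62.

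Within the locus both lines were highest in the middle. In LNCaP the highest bin was chr12:52880001-52920000 (0.10) and the lowest chr12:52720001-52760000 (-0.29). In VCaP the highest was chr12:52960001-53000000 (1.05), above 97.4% of all bins, and the lowest was the first bin, chr12:52560001-52600000 (0.41). The largest difference, 1.07, was at chr12:53240001-53280000, with -0.16 in LNCaP and 0.91 in VCaP. Across the 20 bins the values of the lines had a Pearson r of 0.585, and of 0.426 with the averaging undone, as a description of neighbouring bins of the same libraries.

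KRT8 and KRT18, the pair that luminal prostate cells use, lie at the far end of the locus, at 53290000 to 53350000, in 2 bins. The first of these, chr12:53280001-53320000, had -0.12 in LNCaP and 0.78 in VCaP, and the second, chr12:53320001-53360000, had -0.14 and 0.71. Both were associated in VCaP and neither was in LNCaP. The mean difference was 0.88 with a noise SD of 0.27. In the deposited values the mean of this end minus that of the other 18 bins was -0.04 in LNCaP (noise SD 0.16). In VCaP both means were 0.75 (noise SD of the difference 0.24). The averages at this end take in bins of the rest, so these values cannot show whether the end stands apart. With the averaging undone the 2 bins had own values of -0.18 and -0.28 in LNCaP and 0.42 and 0.69 in VCaP. Their means were -0.23 in LNCaP and 0.56 in VCaP, against -0.09 and 0.76 over the 20 bins of the locus. No noise SD was computed for the undone values.

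The VCaP domain around the type II locus reached well beyond it, from 51320001 to 53840000 on chromosome 12, 63 bins or 2520 kb. The flanks of 500 kb had 12 of 12 bins associated on either side, with means of 0.54 before and 0.56 after, against 0.75 in the locus. In LNCaP the locus lay in a stretch of 160 bins outside the associated state, and the nearest associated bin was 2090 kb away.

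**Figure D3:**
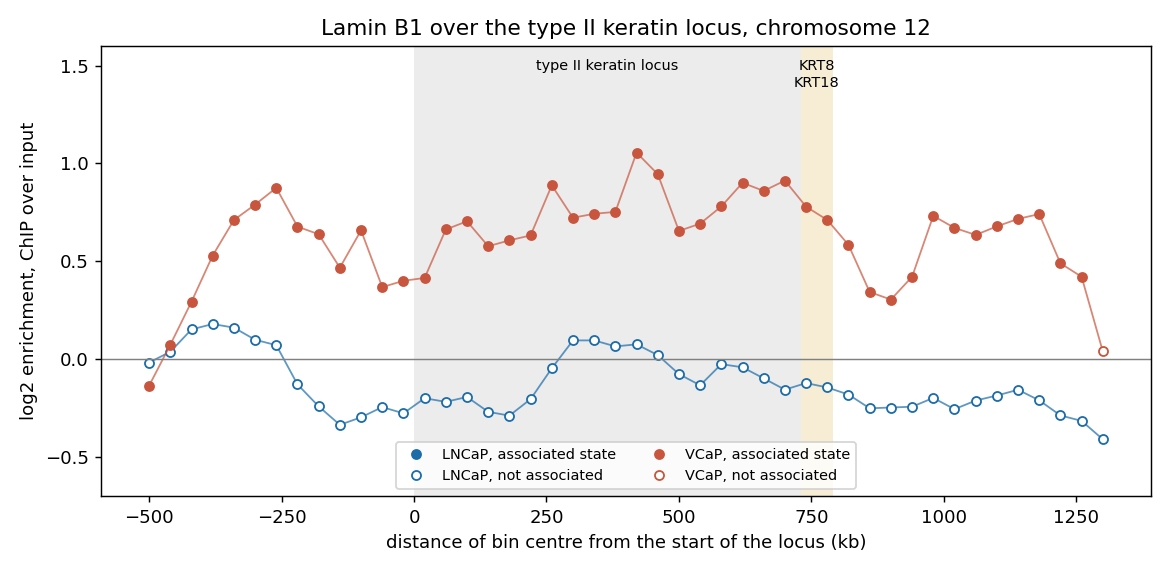
Log2 enrichment in bins of 40 kb over the type II keratin locus (grey) with KRT8 and KRT18 at its end (yellow) and 500 kb to either side, against the distance of the bin centre from the start of the locus; filled points are in the associated state, open points are not. All 20 VCaP bins of the locus are filled and lie at 0.41 or above, and all 20 LNCaP bins are open and lie at 0.10 or below.

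On chromosome 17 the type I keratins stand on either side of the KRTAP genes, and in VCaP the 2 sides differed. The first type I locus holds the genes of the inner root sheath KRT25 to KRT28, the epidermal KRT10, the corneal KRT12 and the intestinal KRT20. Its mean was -0.13 in LNCaP (noise SD 0.09, bins from -0.25 to -0.03) and 0.12 in VCaP (noise SD 0.13, bins from -0.06 to 0.23), and 0 of 9 bins were associated in either line. The difference, 0.25, was 1.58 noise SDs, and it turned to -0.27 with each line centred on the median of chromosome 17. The lowest bin in both lines was chr17:38840001-38880000, with -0.25 in LNCaP and -0.06 in VCaP. The highest was chr17:38960001-39000000 in LNCaP (-0.03) and chr17:39080001-39120000 in VCaP (0.23), which also had the largest difference, 0.37.

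The second type I locus begins with the hair keratins KRT31 to KRT38 and ends with KRT13, KRT15, KRT19, KRT9, KRT14, KRT16 and KRT17. KRT14, KRT15 and KRT17 are keratins of basal cells, KRT19 of simple epithelia and KRT16 of stressed epithelium. Its mean was 0.06 in LNCaP (noise SD 0.09, bins from -0.12 to 0.17), with 0 of 8 bins associated. In VCaP it was 0.83 (noise SD 0.14, bins from 0.59 to 0.93), with 8 of 8 associated, and the ranges of the lines did not overlap. The difference was 0.77 with a noise SD of 0.17, beyond noise in 7 of 8 bins. With each line centred on the median of chromosome 17 it was 0.25, no longer over 2 noise SDs. The largest difference, 0.87, was in the last bin, chr17:39760001-39800000, which was also the highest in VCaP, while the lowest VCaP bin was the border bin chr17:39480001-39520000 shared with the KRTAP genes. In LNCaP the highest bin was chr17:39600001-39640000 and the lowest chr17:39720001-39760000.

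Between the type I loci, the KRTAP locus of chromosome 17 carries the KRTAP1, KRTAP2, KRTAP3, KRTAP4 and KRTAP9 families with KRTAP16-1, KRTAP17-1 and KRTAP29-1, mostly cysteine-rich proteins of the hair. Its mean was 0.01 in LNCaP (noise SD 0.08, bins from -0.20 to 0.10) and 0.21 in VCaP (noise SD 0.12, bins from 0.05 to 0.59). The difference of 0.21 was 1.39 noise SDs, and it turned to -0.32, -2.13 noise SDs, with each line centred on the median of chromosome 17. LNCaP had 0 of 10 bins associated and VCaP the last 4. From the first bin to the last the VCaP values were 0.10, 0.05, 0.06, 0.09, 0.15, 0.12, 0.29, 0.29, 0.37 and 0.59. They stayed low over the first 6 bins and were highest in the last. In LNCaP the values were -0.20, -0.11, -0.02, 0.05, 0.04, 0.02, 0.03, 0.10, 0.06 and 0.09, with no bin beyond 0.10.

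In VCaP the border of the associated state thus fell inside the KRTAP genes, at 39360001, 210 kb into their locus. Of the 25 bins of the 3 loci the first 14 were not associated and the other 11 were. The stretch outside the state ran from 38800001 to 39360000, 560 kb, and began with the first bin of the first type I locus. The 500 kb before it had 12 of 12 bins associated in VCaP with a mean of 0.65, so the first type I keratins and most of the KRTAP locus formed a gap between associated flanks. With the averaging undone, the bins before the gap had own values in VCaP of 1.14, 0.80, 0.45 and -0.08 from 38640001 to 38800000. The last bin of the gap, starting at 39320001, had 0.40, and the first associated bin, starting at 39360001, had 0.38. The next bins had 0.10, 0.63, 1.04 and 0.99 from 39400001 to 39560000. Inside the gap the own values reached 0.46, in the bin starting at 39200001. The own values thus showed no step at the called border. The second type I locus lay 0.71 above the first in VCaP (noise SD 0.19) and 0.19 above it in LNCaP (noise SD 0.13). In LNCaP all 3 loci lay in a stretch of 371 bins outside the associated state, whose far end was 290 kb past the second type I locus.

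**Figure D4:**
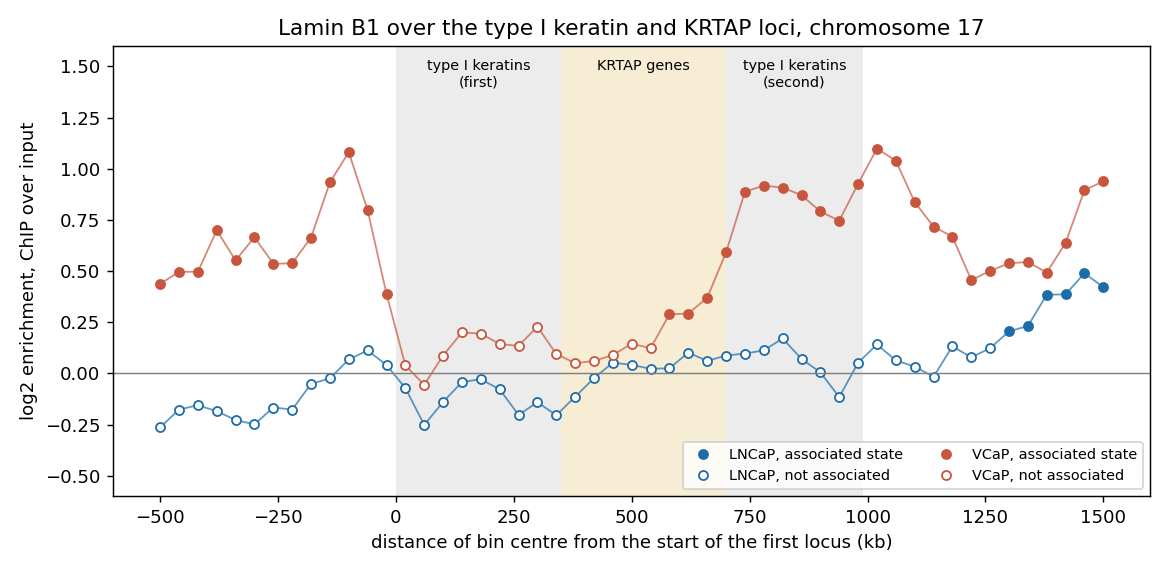
Log2 enrichment in bins of 40 kb over the type I keratin loci (grey) and the KRTAP locus between them (yellow) on chromosome 17, against the distance of the bin centre from the start of the first type I locus; filled points are in the associated state. VCaP falls to between -0.06 and 0.23 over the first type I locus and lies between 0.59 and 0.93 over the second, while LNCaP stays between -0.25 and 0.17.

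The KRTAP loci of chromosome 21 lay far apart in VCaP and close together in LNCaP. The first carries, among others, the KRTAP13 genes and the glycine- and tyrosine-rich families KRTAP6, KRTAP8, KRTAP19, KRTAP20 and KRTAP21. Its mean was -0.37 in LNCaP (noise SD 0.06, bins from -0.55 to -0.17) and -0.17 in VCaP (noise SD 0.10, bins from -0.66 to 0.50). The difference of 0.20 was 1.70 noise SDs, and it turned to -0.38, -3.27 noise SDs, with each line centred on the median of chromosome 21. LNCaP had 0 of 16 bins associated and VCaP the last 2, which open a domain of 840 kb that ran to 33040000. VCaP was higher beyond noise in 1 of 16 bins, chr21:32240001-32280000, with 0.50 against -0.17 in LNCaP. This was the highest bin of the locus in both lines.

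In the first chromosome 21 locus some of the highs and lows of the lines fell in the same or neighbouring bins. Both were low in its first bin, with -0.55 in LNCaP and -0.52 in VCaP. A crest followed, of -0.26 in LNCaP in the bin starting at 31760001 and of 0.02 in VCaP in the next bin. Both were low again in the bins from 31880001 to 31960000, with -0.54 and -0.48 in LNCaP and -0.34 and -0.66 in VCaP. LNCaP also dipped in the bins starting at 32000001 (-0.45) and 32160001 (-0.30), where VCaP was rising. The lowest VCaP bin, chr21:31920001-31960000, lay above 2.64% of all bins. It was one of 3 member bins in which VCaP was below LNCaP. Across the 16 bins Pearson r between the lines was 0.793, and 0.600 with the averaging undone, again as a description of neighbouring bins. It was -0.567 (-0.470 undone) over the 6 bins of the second chromosome 21 locus. On chromosome 17 it was 0.574 (0.530 undone) in the first type I locus and 0.587 (0.633) in the KRTAP locus. In the second type I locus it was 0.366 (0.745).

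The second KRTAP locus of chromosome 21 carries the cysteine-rich KRTAP10 and KRTAP12 families. Its 6 bins had -0.42, -0.24, -0.26, -0.20, -0.26 and -0.29 in LNCaP and 1.14, 1.03, 0.88, 0.75, 0.67 and 0.68 in VCaP. All 6 were associated in VCaP and 0 in LNCaP, and the ranges did not overlap. The mean was -0.28 in LNCaP (noise SD 0.11) and 0.86 in VCaP (noise SD 0.16). The difference, 1.14, was the largest of the 6 loci (noise SD 0.19), and was 0.56 with each line centred on the median of chromosome 21. Its largest single value, 1.56, was in the first bin, chr21:45920001-45960000, which was above 98.5% of all bins in VCaP and above 7.52% in LNCaP. Most of this bin, and the bins averaged into it, lie before the locus, which starts at 45950000. The 500 kb before the locus had a mean of 1.02 in VCaP, with 11 of 11 bins associated, and of -0.35 in LNCaP. The 500 kb after it had 0.69 in VCaP, with 12 of 12 associated, and -0.49 in LNCaP. The VCaP domain of this locus ran from 43040001 to the end of the chromosome, 127 bins, with a mean of 0.74.

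Between the KRTAP loci of chromosome 21 the VCaP means differed by 1.03 (noise SD 0.19) and the LNCaP means by 0.09 (noise SD 0.12). The promoters of the second locus, with the higher VCaP mean, had the higher median GC content of the pair (53.2% against 36.8%). KRTAP13-4 and KRTAP10-8, printed above, were picked as the genes nearest these medians, so their 36.8% and 53.2% are no separate observation. Base composition of the 40 kb bins was not computed, and its part in the result was not tested. The KRTAP locus of chromosome 17, at 40.4%, and the first type I locus, at 36.0%, had VCaP means of 0.21 and 0.12.

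**Figure D5:**
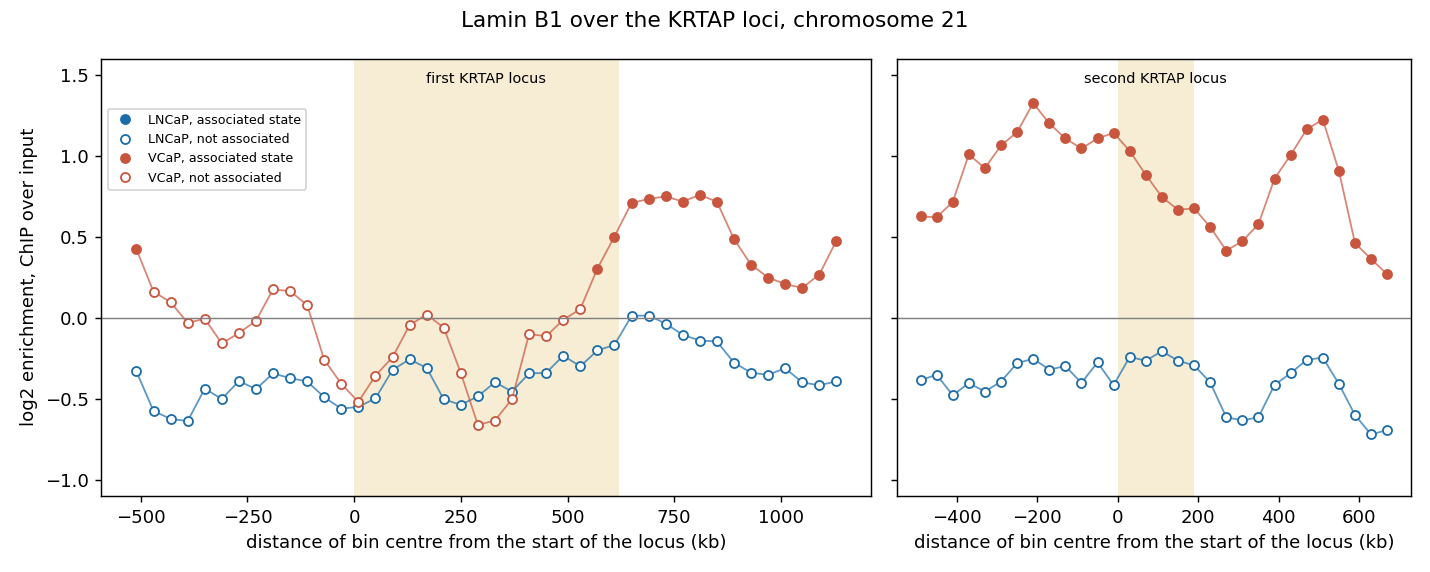
Log2 enrichment in bins of 40 kb over the KRTAP loci of chromosome 21 (yellow) and 500 kb to either side, against the distance of the bin centre from the start of each locus; filled points are in the associated state. In the first locus VCaP lies between -0.66 and 0.50 with 2 of 16 bins filled, and in the second between 0.67 and 1.14 with 6 of 6 filled, while all LNCaP bins of both are open and below 0.

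The lists of keratin genes were then read by the state of the locus that holds each gene. Of the 55 keratin genes, 43 (78.2%) lay in loci associated throughout in VCaP, and the counts of the lists are to be read beside that share. In LNCaP every locus was outside the associated state, so every gene of the lists below was too. In VCaP all 4 basal keratins (KRT5, KRT14, KRT15 and KRT17) and all 4 stress keratins (KRT6A, KRT6B, KRT6C and KRT16) fell in loci whose bins were all associated. So did 5 of 7 simple epithelial keratins, the others being KRT20 and KRT23, and 15 of 17 hair keratins, the others being KRT39 and KRT40. Of the 13 keratins of differentiating epithelium 10 did, with KRT10, KRT12 and KRT24 in the first type I locus. Of the 9 inner root sheath keratins the 5 of type II did and the 4 of type I did not. Of the 82 KRTAP genes, 16 lay in a locus associated throughout and 66 in the loci that were associated in part.

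Type I and type II chains that form one filament could thus lie in different states. Of 9 textbook pairs, listed after the values were seen, 5 had both genes in loci associated throughout in VCaP: KRT8 with KRT18, KRT5 with KRT14, KRT4 with KRT13, KRT6A with KRT16 and KRT85 with KRT35. In the other 4 the type II gene lay in the associated type II locus and the type I gene in the first type I locus, which was not associated: KRT1 and KRT2 with KRT10, KRT3 with KRT12 and KRT71 with KRT25. The pairs share these loci, so they are not separate observations. Genes at a border, such as those near the ends of the chromosome 17 loci, could fall in a neighbouring bin.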

How the data were processed

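Lamin B1 ChIP-seq values of 2 lines were used, with 1 ChIP and 1 input library each, grouped by the titles in the labels. The deposited values are log2 enrichment of ChIP over input in bins of 40 kb. The submitters' processing notes name STAR and hg19. Scaling, filters and read numbers are not given in the sources used here. The deposited state (AD or iAD, called by a hidden Markov model per the file names) is a text label; AD, the state with the higher values, was taken as associated.

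No value is given for 48 entries per line, those that open a chromosome. Undoing a trailing mean of 3 entries brought the median absolute value of the entries wider than 40 kb from 0.21 to 0.0065 in LNCaP and from 0.33 to 0.0067 in VCaP, so each value is treated as such a mean. No wide entry was a member.

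A bin belonged to a locus when it overlapped it. Noise is 1.4826 times the median absolute difference of bins 3 apart, divided by the square root of 2. The noise of a difference combines both lines as independent. A mean counted 1 separate value per 3 bins. A difference was called over 2 noise SDs. Highest, lowest and most different bins were named by rule. GC content and motifs used 1 RefSeq start per gene. Members and lists were chosen with earlier results of these data known. The procedures were tested on simulated data. Python 3.11.15, numpy 2.4.6, pandas 2.3.3 and matplotlib 3.10.9 were used.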

Additional observations from a re-analysis of the deposited data

Results flagged for a closer look

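The ChIP library lay on opposite sides of its input in the 2 lines at some loci, with 1 library pair each. The mean log2 enrichment was below 0 in LNCaP and above 0 in VCaP in the type II keratin locus (VCaP minus LNCaP 0.84), at its KRT8 and KRT18 end (0.88), in the first type I keratin locus of chromosome 17 (0.25) and in the second KRTAP locus of chromosome 21 (1.14). These differences between the lines were not tested. In the first type I locus the difference was within 2 noise SDs, and the signs there depend on the zero point of each line. The LNCaP means of the type II locus (-0.09, noise SD 0.06) and of its KRT8 and KRT18 end (-0.13, noise SD 0.15) also lay within 2 noise SDs of 0. Their sign is therefore not beyond noise.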

How the results depend on the processing

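The 25 results were recomputed under 122 alternatives, and no difference that was over 2 noise SDs changed sign. The 54 alternatives of the locus means within each line moved them by less than their noise SD, as did 53 of those of the between-line differences and counts (counts within 1.5 times). Centring each line on the median of the chromosome, added after seeing the data, left differences of 0.62 in the type II locus, 0.25 in the second type I locus (no longer over 2 noise SDs) and 0.56 in the second KRTAP locus of chromosome 21, and turned those of the first type I locus (-0.27), the KRTAP locus of chromosome 17 (-0.32) and the first KRTAP locus of chromosome 21 (-0.38) below 0, the last 2 beyond 2 noise SDs; it left 18 bins higher in VCaP and 4 higher in LNCaP. The shift is that of the chromosome medians, by construction, and the shares of all bins called under this centring were not computed. Centring on the line's median gave 0.71 in the type II locus and 0.0646 in the first KRTAP locus of chromosome 21. Quantile normalization gave 0.70 in the type II locus and 0.59 in the second type I locus. With enrichment over 0, or over the line's median, in place of the deposited state, 18 or 11 LNCaP bins were associated. A difference over 1 left 4 bins, by construction. Bins wholly inside the KRT8 and KRT18 end do not exist, so that setting was not run there. No paired analysis was possible because no group has a second library. With the depth unknown, the noise between bins alone limits single bins.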
